A study of Mus musculus with 9 samples.

Results

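The 45 genes described here carry out DNA replication and cell division, and were chosen by name. They were 45 of the 38720 genes in a count table of sorted mouse thymic epithelial cells. By role they comprised 16 replication genes, 5 genes of S-phase entry, 20 genes of mitosis and 4 regulators of G1, the phase before DNA synthesis. All 45 passed the filter on low counts in every comparison. Polyadenylated RNA was sequenced as 20 libraries in 6 groups, and each gene's level is given as CPM, its count scaled to a library total of 1000000. Cortical cells (cTEC) were sorted as CD45-, EpCAM+, MHCII+, Ly51+ and UEA1-, and medullary cells (mTEC) as CD45-, EpCAM+, MHCII+, Ly51- and UEA1+.

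The transgenic set came from mice on the nude background, which lack working Foxn1 of their own, and which carried a Foxn1 transgene on a bacterial artificial chromosome. The design names the transgene product as FLAG-tagged. Animals labelled homozygous for the transgene (wt*/wt*::nu/nu) gave 3 cTEC and 2 mTEC libraries, and animals labelled heterozygous (wt*/-::nu/nu) gave 3 cTEC and 2 mTEC libraries. All mice of the deletion set were homozygous for a beta5t-rtTA locus and for Foxn1fl/fl, and all had received doxycycline 72 h before. The 5 deleted cTEC libraries came from mice heterozygous for tetO-Cre1Jaw/J, in which Cre removes exons 7 and 8, and the 5 control cTEC libraries from mice without that transgene. The rtTA sits in the beta5t locus, so Cre is driven from a gene of the cortical epithelium. The labels give neither ages nor the number of animals per library, so the p-values measure the spread between libraries, which may be technical.

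Totals ran from 20719630 to 22372633 counts per library. Foxn1 was at 1299 to 1484 CPM in homozygous and 1144 to 1210 CPM in heterozygous cTEC, a log2 difference of -0.36 ± 0.06 (SE, adjusted p = 0.000445). In mTEC the order was the opposite of the transgene labels, with 307 to 329 CPM in the libraries labelled homozygous and 488 to 502 CPM in those labelled heterozygous (log2 difference 0.66 ± 0.08, adjusted p = 1.68e-05). The counts do not separate transgene reads from reads of the nude locus. Over the whole gene, Foxn1 did not pass the test after deletion (log2 difference -0.09 ± 0.16, adjusted p = 0.783), and these counts do not resolve the deleted exons. Aire, which marks mature mTEC, was at 998 to 1188 CPM in transgenic mTEC and at most 2.95 CPM in transgenic cTEC. Psmb11, which encodes beta5t, was at 961 to 1053 CPM in homozygous cTEC but at only 0 to 1.79 CPM over the 10 libraries of the deletion set. All mice of that set were homozygous for the rtTA allele at this locus, and the labels do not say whether the allele leaves a Psmb11 transcript. Other cortical markers were present in the control libraries, with Prss16, a thymic serine protease, at 2177 to 8182 CPM and Ly75, which encodes DEC-205, at 513.5 to 890.1 CPM. In bulk RNA, fewer cells of a type and less RNA per cell cannot be told apart, which here applies to the share of cycling cells.

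A dividing cell licenses its replication origins in G1 by loading the Mcm2 to Mcm7 helicase with the help of Cdc6 and Cdt1. D-type cyclins and then E-type cyclins with Cdk2 release E2F transcription factors, which switch on the replication genes. Genes for mitosis peak later, in G2 and M phase, and many are controlled through CHR elements and CCAAT boxes in their promoters, bound by the DREAM and MuvB complexes and by NF-Y. Thymic epithelial cells are renewed by division, and medullary cells in particular include a dividing precursor pool beside mature cells that no longer divide.

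Promoters of replication and mitosis genes were compared for short sites of these kinds. RefSeq promoters (GRCm38.p6, 250 bases before to 50 bases after the start) were matched for 36 of the 45 genes, of which 3 had 2 starts. Mcm4, Gins2, Ccne2, Ccna2, Aurkb, Kif20a, Tpx2, Ccnd1 and Ccnd2 were not matched. Exact matches on both strands were counted for 4 E2F-type sites (TTTCCCGC, TTTCGCGC, TTTGCCGC and TTTGGCGC), 2 CHR-type sites (TTTGAA and TTTAAA) and CCAAT. An E2F-type site was found in 7 of 15 replication promoters (46.7%), those of Cdc6, Cdt1, Mcm3, Mcm5, Mcm6, Mcm7 and Pola1, against 2.3% of all 32851 promoters in the table. Among 16 mitosis promoters, 1 held an E2F-type site (6.2%), that of Cdk1. A CHR-type site was found in 14 of 16 mitosis promoters (87.5%) against 27.6% of all promoters, and CCAAT also in 14 of 16 against 37.4%. Both stood together in 13 of 16 mitosis promoters (81.2%), in 3 of 15 replication promoters (20.0%), and in 10.7% of all promoters. A match describes these letters in this window and shows no binding.

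The 160 bases before the start are printed for 3 replication genes with E2F-type sites, in capitals. The genes are the polymerase subunit Pola1 and the helicase subunits Mcm6 and Mcm5. In Mcm6 the first stretch in capitals holds 2 overlapping sites on opposite strands, and so does the stretch in Mcm5. Each sequence is written on the strand of its gene.
Pola1 (chrX:93632156-93632315, - strand): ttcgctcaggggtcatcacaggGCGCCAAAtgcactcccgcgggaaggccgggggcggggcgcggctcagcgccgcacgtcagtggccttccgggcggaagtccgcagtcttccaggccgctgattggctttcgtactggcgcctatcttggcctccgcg
Mcm6 (chr1:128359706-128359865, - strand): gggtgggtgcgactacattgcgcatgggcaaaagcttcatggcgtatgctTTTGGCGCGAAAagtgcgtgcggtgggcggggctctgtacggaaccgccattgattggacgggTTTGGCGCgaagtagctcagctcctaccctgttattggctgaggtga
Mcm5 (chr8:75109349-75109508, + strand): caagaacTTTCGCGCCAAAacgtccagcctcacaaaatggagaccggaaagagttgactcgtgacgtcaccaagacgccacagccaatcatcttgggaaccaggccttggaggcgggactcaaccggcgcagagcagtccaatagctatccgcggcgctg

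The same window is printed for 3 of the 4 mitosis genes with the smallest adjusted p between the mTEC groups (Kif20a, the other, was not matched), with CHR-type and CCAAT matches in capitals (TTCAAA and ATTGG are the same sites on the other strand). Top2a encodes the topoisomerase that untangles sister chromatids, Cenpf a kinetochore protein and Kif11 the motor that separates spindle poles. None of the 3 windows holds an E2F-type site.
Top2a (chr11:99024190-99024349, - strand): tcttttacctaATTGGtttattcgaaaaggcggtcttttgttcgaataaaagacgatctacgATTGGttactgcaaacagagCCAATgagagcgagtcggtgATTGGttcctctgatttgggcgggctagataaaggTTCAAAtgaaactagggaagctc
Cenpf (chr1:189688087-189688246, - strand): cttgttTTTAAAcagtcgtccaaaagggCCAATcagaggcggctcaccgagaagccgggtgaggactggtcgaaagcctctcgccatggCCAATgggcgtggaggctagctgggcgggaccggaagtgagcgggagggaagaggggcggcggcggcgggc
Kif11 (chr19:37376222-37376381, + strand): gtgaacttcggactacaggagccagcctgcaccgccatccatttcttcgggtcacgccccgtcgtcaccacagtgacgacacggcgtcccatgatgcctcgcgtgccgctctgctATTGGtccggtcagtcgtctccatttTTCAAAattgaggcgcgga

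Differences between groups are given as log2 fold changes with their SE from edgeR's quasi-likelihood test, with Benjamini-Hochberg adjustment over all genes tested and a threshold of 0.05. In mTEC, replication and mitosis genes were higher together in the libraries labelled heterozygous. Of the 45 genes, 41 were higher and 2 lower (Ccnd3 and Cdkn1b), against 28.9% of all 19222 genes tested called higher and 30.8% called lower (59.7% in either direction). The median log2 difference was 0.84 over the 45 genes and 0.01 over all genes. The values of the 2 libraries of each group did not overlap for 44 of the 45, against 80.1% of all genes tested. Foxn1 itself was also higher in the mTEC libraries labelled heterozygous, whereas in cTEC it was lower in those so labelled (log2 difference -0.36). A link between the Foxn1 count and these genes was not tested. With DESeq2 size factors the median of all genes moved by -0.13, and 39 genes were higher.

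Of the replication genes in mTEC 15 of 16 were higher, with a median of 0.81. Pola1, the catalytic subunit of the polymerase that starts each DNA strand, was at 16.5 and 18.9 CPM in homozygous and 35.55 and 35.54 CPM in heterozygous mTEC. The difference was 1.03 ± 0.11 (SE, adjusted p = 8.65e-06), a 2.04-fold higher level. Mcm7, a helicase subunit, was at 64.5 and 64.9 CPM against 125.5 and 113 CPM. The 2 homozygous libraries were near-equal, and both lay well below the 2 heterozygous ones (0.91 ± 0.10, adjusted p = 7.46e-06). Mcm3, another helicase subunit, was at 42.6 and 44.3 CPM against 82.4 and 79.9 CPM (0.92 ± 0.12). Rrm1, the large subunit of the ribonucleotide reductase that makes deoxynucleotides, was at 69.4 and 67.5 CPM against 115 and 110.4 CPM (0.74 ± 0.09). Both genes again showed groups that stood clear of each other.

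All 6 helicase subunits were higher in heterozygous mTEC, from 0.70 for Mcm4 to 1.08 for Mcm5. Mcm5 stood at 36.1 and 40.0 CPM in homozygous and 85.4 and 72.7 CPM in heterozygous mTEC. Cdc6, which loads the helicase, had the largest difference of the 45 genes, from 4.31 and 4.72 to 12.8 and 11.2 CPM (1.43 ± 0.21, adjusted p = 9.3e-05). Its partner in loading, Cdt1, differed by 0.66 ± 0.17. Smaller differences were seen for Pcna, the sliding clamp (0.46 ± 0.12), and Rrm2, the small reductase subunit (0.69 ± 0.15). Tyms, which makes thymidylate, differed by 0.77 ± 0.14, the clamp loader subunit Rfc4 by 0.78 ± 0.15 and the primase Prim1 by 0.93 ± 0.13. The replication gene that did not pass was Gins2, a subunit of the GINS helicase cofactor, at 8.52 and 9.54 CPM against 12.9 and 10.2 CPM (0.38 ± 0.18, adjusted p = 0.0837).

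Among the genes of S-phase entry, 4 of 5 were higher. E2f1, an activator of replication genes, was at 8.29 and 7.92 CPM in homozygous and 21.6 and 17.4 CPM in heterozygous mTEC (1.29 ± 0.19, adjusted p = 9.99e-05). Cdk2, the kinase of S phase, was at 47.1 and 48.0 CPM against 69.1 and 62.4 CPM (0.49 ± 0.08). Ccne1 and Ccne2, the E-type cyclins that activate Cdk2, followed with 0.54 ± 0.17 and 0.53 ± 0.14. Ccne1 was at 7.96 and 7.92 CPM against 11.9 and 10.8 CPM, and Ccne2 at 9.21 and 9.26 CPM against 13.5 and 12.8 CPM. E2f2, the other E2F activator listed, did not pass, at 43.0 and 37.1 CPM against 44.4 and 41.0 CPM (0.12 ± 0.10, adjusted p = 0.326), and its libraries overlapped.

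All 20 mitosis genes were higher in heterozygous mTEC, by 0.40 to 1.09 with a median of 0.95. Top2a was at 95.5 and 104 CPM in homozygous and 195.5 and 196 CPM in heterozygous mTEC (0.99 ± 0.11, adjusted p = 6.96e-06). Cenpf was at 29.0 and 31.1 CPM against 55.4 and 65.2 CPM (1.03 ± 0.12), and Kif11 at 25.6 and 28.3 CPM against 57.7 and 54.9 CPM (1.09 ± 0.13). These 3 genes, whose promoters are printed above, thus stood near a 2-fold difference with no overlap. Kif20a, a motor of the central spindle, was at 26.5 and 27.7 CPM against 51.4 and 45.8 CPM (0.87 ± 0.10). Mki67, the Ki-67 protein used to mark dividing cells, was at 118 and 147 CPM against 236 and 262 CPM (0.93 ± 0.14).

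The rest of the mitotic machinery lay within the same range. The mitotic cyclins Ccna2 and Ccnb1 differed by 1.06 ± 0.15 and 1.05 ± 0.15, and Ccnb2 by 0.63 ± 0.12, while their kinase Cdk1 differed by 0.52 ± 0.13. Aurkb, the kinase that corrects chromosome attachment, differed by 1.08 ± 0.18, and Birc5, which sits with it at the centromere, by 0.98 ± 0.17. Aurka and its activator Tpx2, which act at spindle poles, differed by 0.57 ± 0.14 and 0.63 ± 0.11. The spindle checkpoint genes Bub1, Bub1b and Mad2l1 differed by 0.86 ± 0.15, 0.97 ± 0.12 and 0.40 ± 0.13, the last being the smallest of the 20. Cdc20 and Ube2c, which drive the destruction of mitotic proteins, differed by 0.83 ± 0.12 and 1.03 ± 0.14. The kinase Plk1 differed by 0.99 ± 0.13 and the kinetochore motor Cenpe by 0.78 ± 0.13.

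**Figure D1:**
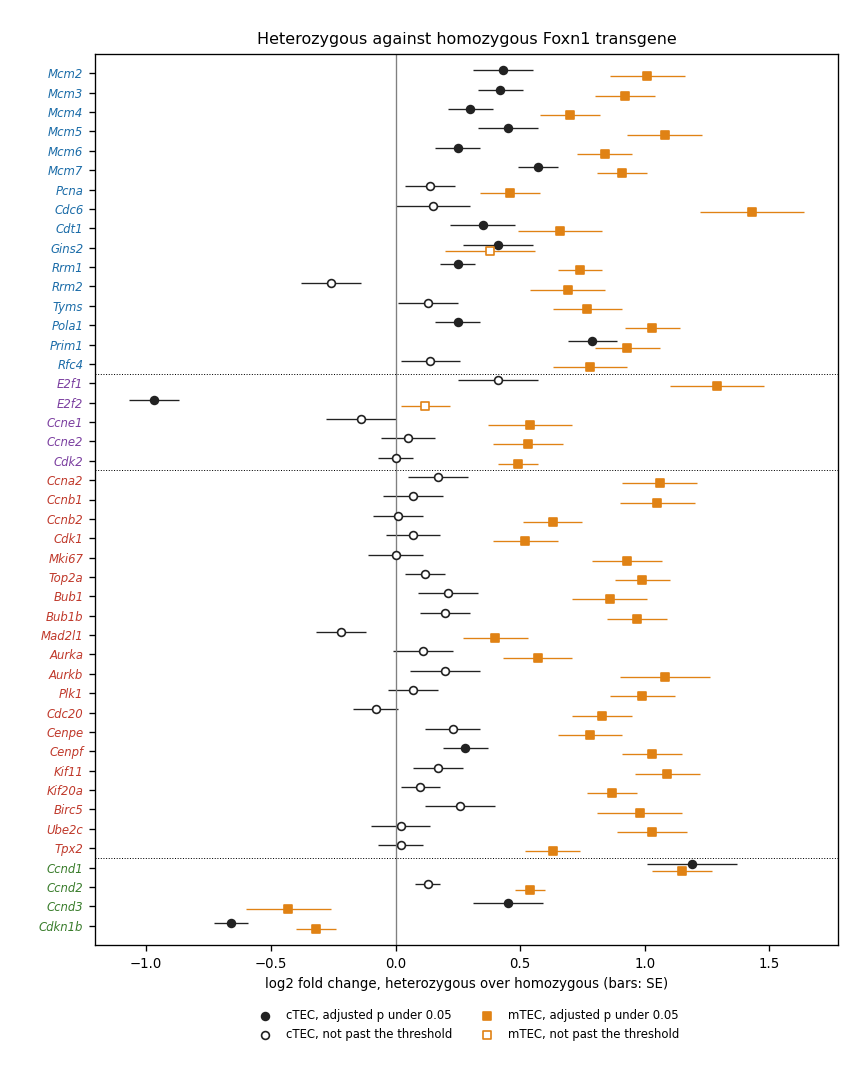
Log2 fold change, heterozygous over homozygous, for each of the 45 genes in cTEC (black circles, 3 against 3 libraries) and mTEC (orange squares, 2 against 2 libraries), with bars for the SE, filled symbols for an adjusted p under 0.05, and dotted lines between the role groups. The mTEC symbols lie right of 0 for 43 genes, while most cTEC symbols of the mitosis genes are open and lie near 0.

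In cTEC the difference was smaller, and most genes past the threshold were replication genes. Higher levels in heterozygous libraries passed the test for 14 of the 45 genes and lower levels for 2, against 20.9% of all genes higher and 21.9% lower (42.8% in either direction). Over the 45 genes the median was 0.15, against 0.00 over all genes. Replication genes made up most of the 14, 11 of 16 with a median of 0.28, against 1 of 20 mitosis genes with a median of 0.10. Values lay above 0 for 15 of 16 replication genes and for 18 of 20 mitosis genes. The difference between those lists was not tested. Here Foxn1 was lower in the heterozygous libraries, in the order of the labels. No overlap between the groups of 3 libraries was found for 25 of the 45 genes, close to the 54.7% of all genes tested for which this held.

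All 6 helicase subunits passed in cTEC, from 0.25 for Mcm6 to 0.57 for Mcm7, but Mcm2, Mcm4, Mcm5 and Mcm6 fell short of the threshold when the filter on low counts was left out. Without that filter, 4 of the 45 genes were higher, 3 of them replication genes. Mcm7 was at 63.0, 76.2 and 68.4 CPM in homozygous and 108, 124 and 105 CPM in heterozygous cTEC (0.57 ± 0.08, adjusted p = 6.47e-05). Prim1, the catalytic subunit of primase, was at 12.9, 12.7 and 12.5 CPM against 21.9, 28.7 and 21.9 CPM. It had the largest difference of the replication genes (0.79 ± 0.10, adjusted p = 3.49e-05). Mcm3 was at 49.5, 57.4 and 52.2 CPM against 75.8, 91.3 and 66.8 CPM (0.42 ± 0.09), and Mcm5 at 53.1, 62.4 and 60.1 CPM against 81.3, 108.9 and 73.2 CPM (0.45 ± 0.12). In both, library 2 of the heterozygous group was the highest. Cdt1, Gins2, Rrm1 and Pola1 also passed, with differences of 0.35, 0.41, 0.25 and 0.25. Pcna (0.14 ± 0.10), Cdc6 (0.15 ± 0.15), Tyms (0.13 ± 0.12), Rfc4 (0.14 ± 0.12) and Rrm2 (-0.26 ± 0.12) did not.

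Heterozygous library 2 was the highest of the 10 transgenic libraries for 30 of the 45 genes, 14 of them replication and 13 mitosis genes. Without it, 6 replication genes and 8 of the 45 passed as higher in cTEC, and without homozygous library 1, 4 and 6. Without normalization factors, which moved the median of all genes by 0.11, 24 of the 45 were higher, 8 of them mitosis genes. Markers of thymocytes, fibroblasts and both epithelial subsets moved with the same labels. Most other markers were not called. These were 6 of 9 macrophage and dendritic cell, 5 of 6 B cell, 4 of 5 endothelial and 4 of 4 erythroid markers tested. The summed thymocyte markers (20 genes) were at 118 to 171 CPM in homozygous and 52.5 to 70.4 CPM in heterozygous cTEC, with 19 of 20 lower and 1 higher. The summed fibroblast markers (7 genes) were at 37.4 to 39.8 CPM against 219 to 242 CPM, with 4 of 7 higher. The summed cTEC markers (8 genes) were at 17220 to 18600 CPM against 3712 to 4009 CPM, with 8 of 8 lower. The summed mTEC markers (9 genes) were at 183 to 206 CPM against 751 to 932 CPM, with 5 of 9 higher and 3 lower. Their part in the result was not tested.

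The mitosis gene that passed in cTEC was Cenpf, at 57.7, 69.5 and 75.8 CPM in homozygous and 91.8, 94.5 and 84.3 CPM in heterozygous cTEC (0.28 ± 0.09, adjusted p = 0.0261). The other 19 ranged from -0.22 ± 0.10 (Mad2l1) to 0.26 ± 0.14 (Birc5). Mki67 was at 212, 251 and 264 CPM against 252.5, 311 and 235 CPM, so that the groups overlapped (0.00 ± 0.11, adjusted p = 1). Top2a, at 165, 182 and 188 CPM against 202, 246 and 189 CPM, did not overlap but did not pass (0.12 ± 0.08, adjusted p = 0.297).

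E2f2 was lower in heterozygous cTEC, opposite to the replication genes. It was at 11.9, 10.4 and 11.9 CPM in homozygous and 5.98, 6.40 and 6.79 CPM in heterozygous libraries (-0.97 ± 0.10, adjusted p = 4.71e-06). E2f1 was at 8.74, 9.43 and 10.4 CPM against 11.9, 18.0 and 11.7 CPM, apart but not past the threshold (0.41 ± 0.16, adjusted p = 0.0528). Ccne1, Ccne2 and Cdk2 differed by -0.14 ± 0.14, 0.05 ± 0.11 and 0.00 ± 0.07.

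Whether the dose difference itself differed between subsets was tested as an interaction, the log2 difference in mTEC minus that in cTEC. Dose here and below means the transgene label, not the Foxn1 level. With that label Foxn1 went opposite ways, -0.36 in cTEC and 0.66 in mTEC. Its own interaction was 1.02 ± 0.10 (adjusted p = 5.55e-06). The interaction therefore does not compare responses to the same change in Foxn1. It passed the test as positive for 36 of the 45 genes and as negative for 1 (Ccnd3). Of all genes, 25.2% passed as positive and 17.2% as negative (42.5% in either direction). Counted by sign alone, 42 of the 45 values lay above 0 and 3 below. A positive value does not always mean a larger difference in mTEC. Cdkn1b was lower in heterozygous libraries of both subsets, by less in mTEC (-0.32) than in cTEC (-0.66), and E2f2 was lower in cTEC (-0.97) with no call in mTEC (0.12). The median over the 45 genes was 0.63, against 0.05 over all genes. By role, 18 of 20 mitosis genes (median 0.77), 11 of 16 replication genes (median 0.54) and 5 of 5 entry genes passed. The mitosis genes that did not were Cdk1 (0.45 ± 0.17) and Aurka (0.46 ± 0.19). The largest values were those of Cdc6 (1.28 ± 0.26, adjusted p = 0.00142), E2f2 (1.08 ± 0.14, adjusted p = 5.17e-05) and Ube2c (1.01 ± 0.19, adjusted p = 0.000779). Prim1 (0.14 ± 0.16), Gins2 (-0.04 ± 0.22), Cdt1 (0.30 ± 0.21), Pcna (0.32 ± 0.15) and Mcm4 (0.40 ± 0.15) did not pass. The count for replication genes fell to 6 with DESeq2 size factors, to 4 without normalization factors and to 5 without the filter.

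Other cell types' markers also moved with the label in mTEC. The summed macrophage and dendritic cell markers (10 genes) were at 567 and 662 CPM in homozygous and 110.1 and 112.5 CPM in heterozygous mTEC, with 7 of 9 tested lower. The summed thymocyte markers were at 151 and 176 CPM against 100.5 and 103 CPM, with 16 of 20 lower and 1 higher. The summed cTEC markers were at 2572 and 3227 CPM against 2064 and 2118 CPM, with 8 of 8 lower, and the summed mTEC markers at 6590 and 7299 CPM against 5788 and 5934 CPM, with 4 of 9 lower and 1 higher. Within mTEC, these 4 sums were thus highest where the cell cycle genes were lowest. Endothelial sums overlapped, at 40.4 and 48.5 CPM in homozygous and 26.7 and 50.5 CPM in heterozygous mTEC, with 2 of 5 tested higher and 1 lower. Fibroblast sums were at 210 and 236 CPM against 159 and 192 CPM, with 2 of 7 higher and 2 lower. Their part in the result was not tested.

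The level of these genes in mTEC relative to cTEC depended on the transgene label. In homozygous mice 40 of the 45 genes were lower in mTEC than in cTEC and 2 were higher (E2f2 and Ccnd1), against 39.4% of all genes lower and 43.2% higher (82.6% in either direction). The median was -0.72, against 0.04 over all genes. In heterozygous mice 11 were lower and 4 higher (31.6% of all genes lower, 40.4% higher, 72% in either direction), with a median of -0.06 against 0.09. In homozygous mice, the summed macrophage and dendritic cell markers were at 4.33 to 7.71 CPM in cTEC and 567 and 662 CPM in mTEC, with 9 of 9 tested higher. The summed B cell markers (6 genes) were at 2.76 to 4.03 CPM against 180 and 188 CPM, with 6 of 6 higher. In heterozygous mice the macrophage and dendritic cell sums were at 7.30 to 8.71 CPM in cTEC and 110.1 and 112.5 CPM in mTEC. Of 9 markers 8 were higher. The B cell sums were at 6.12 to 7.22 CPM against 136 and 149 CPM, with 6 of 6 higher. Thymocyte sums were at 118 to 171 CPM in homozygous cTEC against 151 and 176 CPM in mTEC. Of 20 markers 7 were higher and 5 lower. In heterozygous mice these sums were at 52.5 to 70.4 CPM against 100.5 and 103 CPM, with 15 higher and 1 lower. Fibroblast markers were 6 of 7 higher in homozygous mTEC, and 4 higher and 3 lower in heterozygous mTEC. Endothelial markers were 4 of 5 and 5 of 5 higher. Their part in the result was not tested. These comparisons share libraries with the dose comparisons and are no separate evidence. With DESeq2 size factors the median of all genes moved by 0.18 in homozygous mice and 35 of the 45 genes were lower. Without normalization factors it moved by 0.24 and 30 were lower, and the heterozygous split became 6 higher and 9 lower. Of the 4 transgenic groups, homozygous mTEC had the lowest mean for 40 of 45 genes, 16 of 16 replication and 19 of 20 mitosis genes among them.

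**Figure D2:**
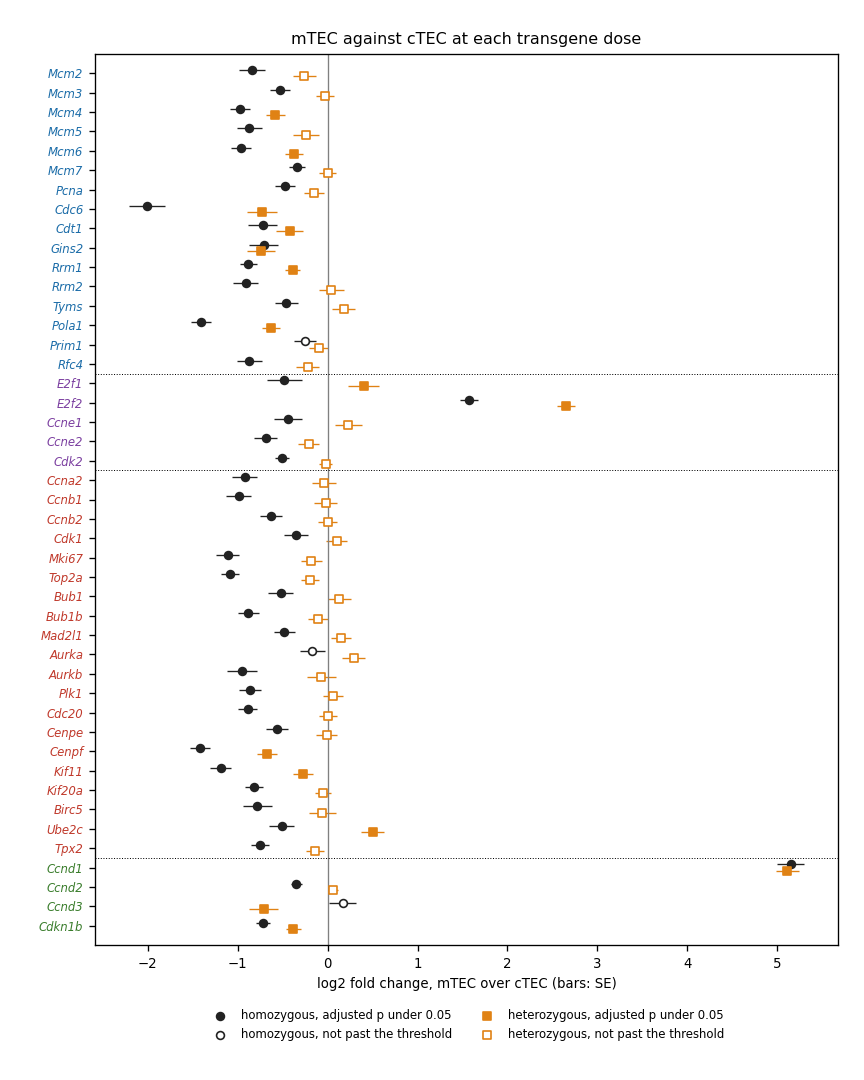
Log2 fold change, mTEC over cTEC, for each of the 45 genes in homozygous (black circles) and heterozygous mice (orange squares), with bars for the SE and filled symbols for an adjusted p under 0.05. Most homozygous symbols lie left of 0 and most heterozygous symbols near it, and Ccnd1 lies above 5 in both.

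Of the replication genes 15 of 16 were lower in homozygous mTEC (median -0.85), and 7 of 16 in heterozygous mTEC (median -0.25). Cdc6 was at 13.5, 16.9 and 15.8 CPM in homozygous cTEC, against 4.31 and 4.72 CPM in mTEC (-2.01 ± 0.20, adjusted p = 4.39e-07). Pola1 was at 35.8, 40.9 and 42.4 CPM in homozygous cTEC and 50.9, 57.3 and 46.9 CPM in heterozygous cTEC. It was lower in mTEC at both doses, by 1.41 ± 0.11 and 0.63 ± 0.10 on the log2 scale, with no overlap. Rrm1 was at 100.2, 111.5 and 108 CPM in homozygous and 126, 159 and 133 CPM in heterozygous cTEC, and differed by -0.88 ± 0.09 and -0.39 ± 0.08. Mcm6, a helicase subunit, was at 105, 127 and 112.5 CPM against 66.9 and 73.1 CPM in homozygous mTEC (-0.96 ± 0.11, adjusted p = 1.66e-06). In heterozygous mice it was at 143, 172 and 135.5 CPM against 130.0 and 117 CPM (-0.37 ± 0.10), a smaller but still called difference. Mcm4 and Gins2 were lower in heterozygous mTEC by -0.58 ± 0.11 and -0.74 ± 0.16. Mcm4 was at 109.7, 140.3 and 106.5 CPM in cTEC against 86.7 and 82.3 CPM, and Gins2 at 17.2, 21.7 and 15.7 CPM against 12.9 and 10.2 CPM. Neither gene's groups overlapped.

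Among mitosis genes 19 of 20 were lower in homozygous mTEC (median -0.84), Aurka being the exception (-0.17 ± 0.14, adjusted p = 0.263). Cenpf had the largest difference of these (-1.42 ± 0.11, adjusted p = 5.3e-08) and was also lower in heterozygous mTEC (-0.67 ± 0.11). Kif11 was at 47.1, 54.5 and 53.9 CPM in homozygous and 59.1, 77.2 and 56.4 CPM in heterozygous cTEC. It was lower in mTEC by 1.19 ± 0.12 and 0.27 ± 0.11 on the log2 scale, the latter with overlapping libraries (adjusted p = 0.0448). Top2a and Mki67 differed by -1.08 ± 0.10 and -1.11 ± 0.13 in homozygous mice, and by -0.20 ± 0.10 and -0.18 ± 0.12, short of the threshold, in heterozygous mice. Ube2c, the ubiquitin carrier of the anaphase-promoting complex, changed sides. It was at 15.5, 17.6 and 19.6 CPM in homozygous cTEC against 15.7 and 13.5 CPM in mTEC (-0.51 ± 0.14, adjusted p = 0.00343). In heterozygous mice it was at 18.4, 23.0 and 17.3 CPM against 30.7 and 27.8 CPM (0.50 ± 0.13, adjusted p = 0.00325). The homozygous groups of Ube2c overlapped, and its homozygous call was lost in another processing setting.

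E2f2 was higher in mTEC at both doses, 2.97-fold in homozygous and 6.29-fold in heterozygous mice (1.57 ± 0.10 and 2.65 ± 0.10 in log2). E2f1 was lower in homozygous mTEC (-0.48 ± 0.19, adjusted p = 0.0292) and higher in heterozygous mTEC (0.40 ± 0.17, adjusted p = 0.0424). Both E2f1 calls were lost in another processing setting, and its heterozygous groups overlapped. Cdk2 was at 58.1, 58.2 and 55.6 CPM in homozygous cTEC, above both mTEC libraries (-0.51 ± 0.08), and its heterozygous groups overlapped (-0.02 ± 0.07). Ccne2, at 11.3, 13.9 and 12.6 CPM in homozygous cTEC, and Ccne1, at 8.46, 10.2 and 8.65 CPM, were also above homozygous mTEC (-0.69 ± 0.13 and -0.44 ± 0.16).

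**Figure D3:**
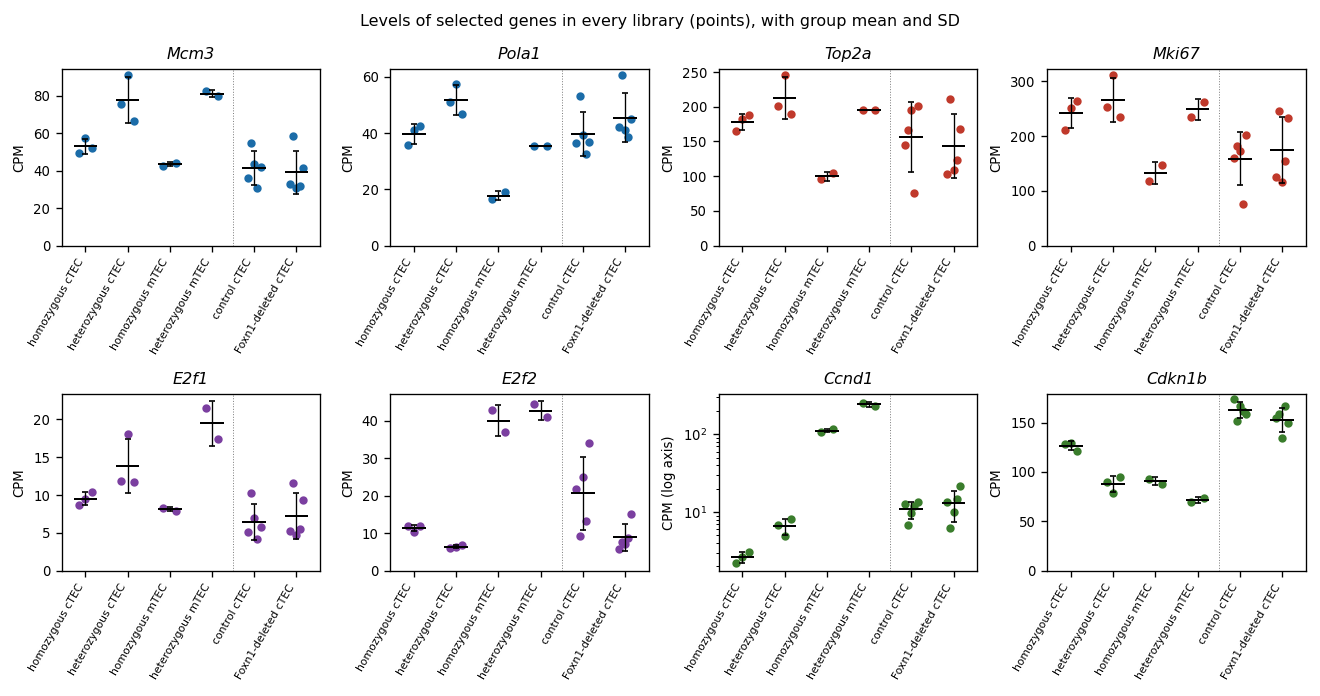
CPM of 8 genes in each of the 20 libraries (points) with the group mean and SD, for replication genes (blue), mitosis genes (red), E2f genes (purple) and G1 regulators (green). The dotted line separates the transgenic set from the deletion set, and the axis for Ccnd1 is logarithmic; the E2f2 and Ccnd1 points of mTEC lie above all transgenic cTEC points.

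The G1 regulators did not follow a common pattern. Ccnd1, a D-type cyclin that couples growth signals to the cycle, was at 107 and 116 CPM in homozygous and 255 and 232 CPM in heterozygous mTEC. In cTEC it was at 2.24, 2.63 and 3.09 CPM in homozygous and 6.85, 4.96 and 8.08 CPM in heterozygous libraries. It was thus 35.4-fold and 34.5-fold higher in mTEC, and higher in heterozygous libraries of both subsets (1.15 ± 0.12 in mTEC, 1.19 ± 0.18 in cTEC), with an interaction of -0.04 ± 0.21. Ccnd2, another D-type cyclin, was at 381 and 399 CPM in homozygous and 555 and 559 CPM in heterozygous mTEC (0.54 ± 0.06, adjusted p = 1.49e-05). In cTEC it was at 409, 429 and 420.5 CPM against 491, 497 and 518 CPM, apart but not past the threshold (0.13 ± 0.05, adjusted p = 0.0671).

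Ccnd3 went in opposite directions in the subsets, though both calls were lost in another processing setting. It was at 49.6, 46.3 and 46.4 CPM in homozygous and 62.6, 94.0 and 56.6 CPM in heterozygous cTEC (0.45 ± 0.14, adjusted p = 0.0173). In mTEC it was at 64.5 and 61.8 CPM against 46.6 and 45.5 CPM (-0.43 ± 0.17, adjusted p = 0.0407), and the interaction was -0.88 ± 0.22 (adjusted p = 0.00533). Cdkn1b, an inhibitor of cyclin-dependent kinases that holds cells in G1, was lower in heterozygous libraries of both subsets. It was at 128, 130.0 and 121 CPM against 89.5, 78.7 and 94.5 CPM in cTEC (-0.66 ± 0.07, adjusted p = 4.16e-06). In mTEC it was at 93.3 and 88.1 CPM against 69.6 and 73.5 CPM (-0.32 ± 0.08, adjusted p = 0.00576). It was also lower in mTEC than in cTEC at both doses (-0.72 ± 0.08 and -0.38 ± 0.08). Between the subsets, Ccnd2 was lower in homozygous mTEC (-0.35 ± 0.06, adjusted p = 8.05e-05) and Ccnd3 lower in heterozygous mTEC (-0.71 ± 0.16, adjusted p = 0.00108).

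**Figure D4:**
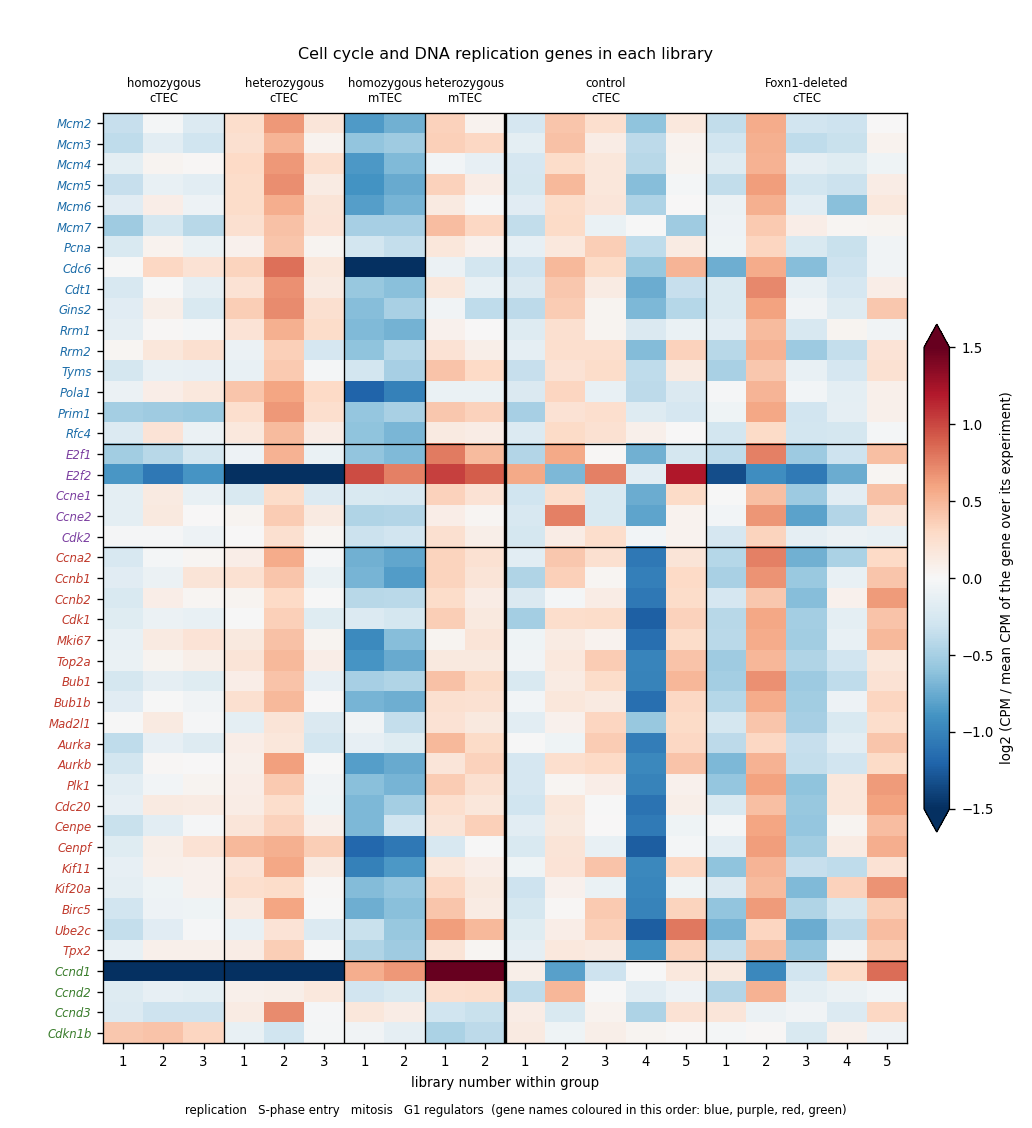
Log2 of each gene's CPM over its mean in the same set, for the 45 genes (rows, by role) in each of the 20 libraries (columns), with the transgenic and the deletion set centred separately and the colours capped at both ends of the scale. The 2 homozygous mTEC columns are low for nearly all replication and mitosis genes, and in the deletion set control 4 is low and deleted 2 high within groups that otherwise overlap.

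Further genes of the same pathways were counted from lists that do not include the 45. Among 42 further replication genes, 32 were higher and 0 lower in heterozygous mTEC (28.9% of all genes higher, 30.8% lower), and 17 higher and 1 lower (Dck, a nucleoside kinase) in cTEC (20.9% higher, 21.9% lower). Dnmt1, which copies DNA methylation after replication, was at 98.8 CPM in homozygous and 204 CPM in heterozygous mTEC (1.07 ± 0.09), and Rfc1, the large clamp loader subunit, at 49.4 against 67.8 CPM (0.48 ± 0.06). In cTEC, Tk1, which salvages thymidine, went from 25.7 to 40.7 CPM (0.53 ± 0.11) and the polymerase subunit Pold3 from 33.4 to 45.5 CPM (0.31 ± 0.06). Dck was lower in heterozygous cTEC (-0.26 ± 0.07).

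Among 42 further mitosis genes, 37 were higher and 1 lower (the centrosomal kinase Nek2, -0.39 ± 0.12) in heterozygous mTEC, and 10 higher and 4 lower in cTEC. The cTEC count of higher genes lay near the 20.9% of all genes. In cTEC the medians of the further replication and the further mitosis list were close, 0.20 and 0.17, against 0.00 over all genes. The condensin subunit Ncapd2 and the spindle protein Nusap1 were higher in heterozygous mTEC by 1.11 ± 0.11 and 1.04 ± 0.10. In cTEC 2 condensin genes went opposite ways, Smc2 higher (0.38 ± 0.09) and Smc4 lower (-0.48 ± 0.05). Ncaph was higher (0.44 ± 0.12) and Racgap1, which acts in cytokinesis, lower (-0.42 ± 0.09). Against cTEC, homozygous mTEC had 33 of these 42 lower and 4 higher, and 33 of the 42 further replication genes lower and 0 higher, where 39.4% of all genes were lower and 43.2% higher.

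Of 30 further G1 and quiescence regulators, 14 were higher and 6 lower in heterozygous mTEC, and 11 higher and 7 lower in cTEC. Of all genes, 28.9% were higher and 30.8% lower in mTEC, and 20.9% and 21.9% in cTEC. The genes that follow are given one by one, and nothing is read from the counts of this mixed list. Cdkn1a, a p53 target, was at 198 and 180 CPM in homozygous and 53.3 and 52.7 CPM in heterozygous mTEC (-1.81 ± 0.11, adjusted p = 7.03e-08). Cdkn2a, whose locus encodes INK4a and ARF, was at 32.7 and 28.5 CPM against 7.91 and 7.74 CPM (-1.94 ± 0.13, adjusted p = 1.24e-07). Cdkn2b, its neighbouring INK4 gene, was at 69.1 and 50.5 CPM against 19.3 and 18.4 CPM (-1.64 ± 0.14). In homozygous cTEC, Cdkn2a had 3 to 5 counts and Cdkn2b 9 to 15 counts per library, so that both were far higher in homozygous mTEC (7.08 ± 0.19 and 6.53 ± 0.19). Cdk4, the kinase partner of the D-type cyclins, was at 197 and 190.3 CPM against 365 and 348 CPM in mTEC (0.90 ± 0.07), and Mycl, a MYC family gene, was higher in heterozygous libraries of both subsets (1.49 ± 0.12 in mTEC, 2.00 ± 0.11 in cTEC). Cdkn1a was also lower in heterozygous cTEC (-0.97 ± 0.11), and Btg2, an antiproliferative gene, higher (1.68 ± 0.23).

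After deletion of Foxn1 exons 7 and 8, none of the 45 genes passed the test in edgeR, against 1.97% of all 15224 genes tested (0.282% higher, 1.69% lower). At an unadjusted p under 0.05 there was 1 gene, E2f2, against 2944 of all genes. DESeq2 called 1, also E2f2, where it called 327 of all genes higher and 781 lower. The median was 0.00, against 0.01 over all genes, and every gene's groups overlapped (5.94% of all genes tested had groups that did not). Differences ran from -1.26 (E2f2) to 0.40 (Kif20a, SE 0.26), with 23 genes above and 22 below 0. In the 3 further lists, 0 of 42 replication, 0 of 42 mitosis and 0 of 29 tested G1 genes passed in edgeR, in DESeq2 or in limma-voom. At an unadjusted p under 0.05 there were 2 replication, 0 mitosis and, with 1 in each direction, 2 G1 genes.

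Rrm1 ranged from 86.7 to 119 CPM in the 5 control and 85.1 to 139 CPM in the 5 deleted libraries (0.05 ± 0.13, adjusted p = 0.872). Cdk2 was at 30.8, 39.9, 44.3, 35.7 and 38.3 CPM in control and 31.1, 46.3, 33.5, 34.7 and 34.0 CPM in deleted libraries (-0.10 ± 0.12). Mki67 was at 160, 181.5, 173, 76.0 and 201 CPM against 126, 245, 116, 154 and 233 CPM (0.11 ± 0.28). Control library 4 was the lowest of the 10 and deleted library 2 the highest. Ccnd2 was at 311, 574, 402.5, 364 and 384 CPM against 298, 582, 367, 382 and 393 CPM (-0.03 ± 0.18), with library 2 the highest in both groups.

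E2f2, chosen here after its values were seen, was at 21.9, 9.30, 24.9, 13.2 and 33.9 CPM in control and 5.86, 7.76, 7.09, 8.82 and 15.1 CPM in deleted libraries. The difference was -1.26 ± 0.37 (adjusted p = 0.107 in edgeR), and 1 deleted library lay above 2 of the controls. It passed with DESeq2 (-1.25, adjusted p = 0.0146), and in edgeR without control library 2 (-1.45, adjusted p = 0.0278). Both runs also called more of all genes, 781 lower and 327 higher in DESeq2 and 732 and 188 without that library. The main run called 257 lower and 43 higher. Over the other libraries left out in turn, the adjusted p ran from 0.0723 to 0.23. Thymocyte marker sums were at 110 to 792 CPM in control and 96.6 to 580 CPM in deleted libraries, both lowest in library 2, with 0 of 19 markers called. In control libraries they stood at 640, 110, 614.5, 302 and 792 CPM, lowest in library 2 and highest in library 5, as E2f2 was. The control sums of cTEC markers (10810, 6823, 12890, 7454 and 20160 CPM) were lowest and highest in the same 2 libraries. Among deleted libraries E2f2 and the thymocyte sum were both highest in library 5. There E2f2 was lowest in library 1 and the thymocyte sum in library 2. The summed cTEC markers were at 6823 to 20160 CPM in control and 3630 to 4223 CPM in deleted libraries, with 4 of 8 lower. The summed fibroblast markers were at 347 to 834 CPM against 773 to 1416 CPM, with 0 of 7 called. Their part in the result was not tested.

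The spread within the deletion set was shared over the gene group. Deleted library 2 was the highest of the 10 for 33 of the 45 genes, and control library 4 the lowest for 32, including 20 of 20 mitosis genes. The median mitosis gene stood at -1.03 in control 4, 0.54 in deleted 2 and 0.41 in deleted 5, as log2 of its CPM over the mean of the 10 libraries. For replication genes the medians in those libraries were -0.41, 0.52 and 0.06. Control 4 was thus farther from the others for mitosis than for replication genes.

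**Figure D5:**
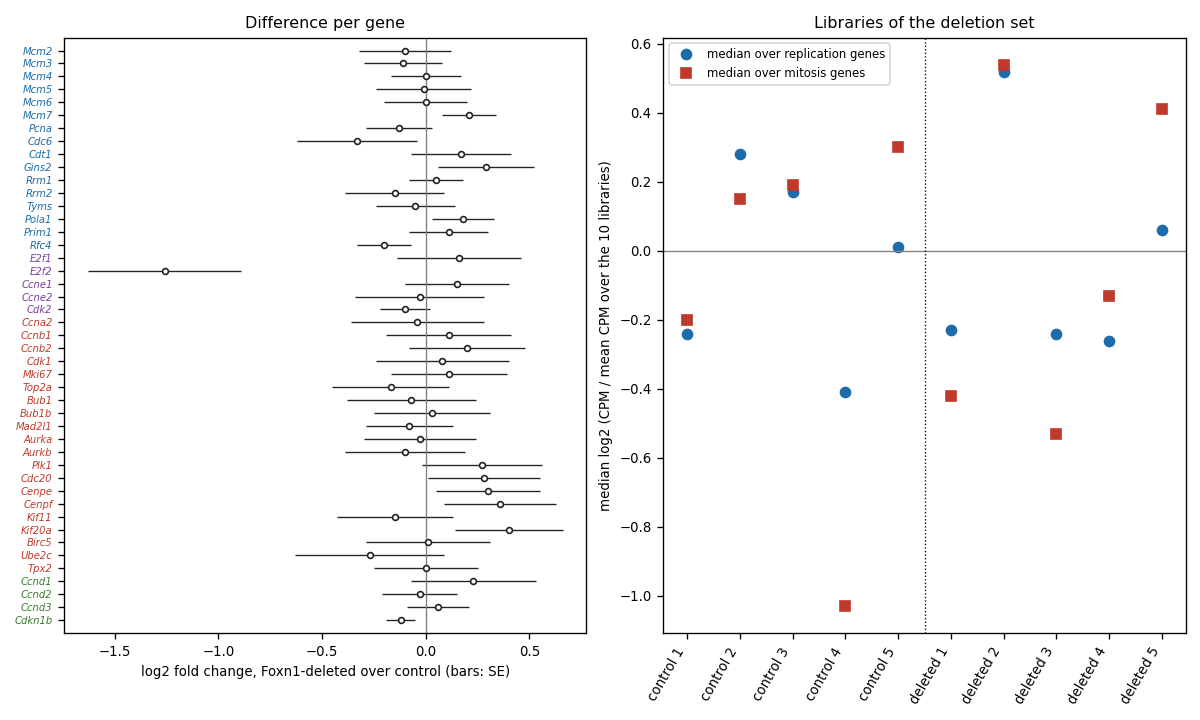
Left, log2 fold change, deleted over control, for each of the 45 genes, with bars for the SE and all symbols open because none passed the threshold. Right, median log2 of CPM over the mean of the 10 libraries for replication genes (blue circles) and mitosis genes (red squares) in each library of the deletion set, lowest in control 4 and highest in deleted 2.

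Set side by side over all 6 groups, with no test because the sets differ in genotype and experiment together, homozygous mTEC had the lowest mean CPM for 28 of the 45 genes. That was so for 14 of 16 replication and 13 of 20 mitosis genes. The highest mean lay in heterozygous cTEC for 12 of 16 replication genes and in heterozygous mTEC for 14 of 20 mitosis genes. These means are scaled by raw totals only. With the normalization factors of the test, heterozygous mTEC lay below heterozygous cTEC for 13 of 20 mitosis genes and above it for 7. The median there was -0.03, with 1 gene called higher and 2 lower, so the ranking of these means shows no difference between those subsets in mitosis genes. Both deletion groups together held the lowest mean for 13 genes, 7 in control and 6 in deleted cTEC.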

How the data were processed

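Polyadenylated RNA of sorted cTEC and mTEC was measured in 20 libraries, and the whole-number counts per gene were used as the authors deposited them. The submitters' processing notes name TopHat2 2.0.10, Trimmomatic 0.32 and featureCounts among their tools, and the builds mm10 and GRCm38. The gene annotation and whether reads were counted by strand were not given in the sources used here.

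Tests ran in edgeR 4.0.16 (quasi-likelihood test, TMM factors, filterByExpr with a minimum count of 10, two-sided) in R 4.3.3, with Benjamini-Hochberg adjustment over all genes tested and a threshold of 0.05. The 10 deletion libraries had their own fit, and the 10 transgenic libraries shared a fit with 4 groups. CPM is the standard count scaled by the raw total. The test was also run on simulated counts with few genes changed. That run cannot check the scaling where many genes differ, as between the transgenic groups. Alternatives were DESeq2 1.42.0, its size factors, limma 3.58.1 (voom), no normalization factors, no filter, a block by library number, the compared libraries alone and each library left out.

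The 45 genes, the further lists and the markers were chosen with earlier results of these data known. In each comparison, up to 4 genes per role with the smallest adjusted p among those past the threshold are given in every library, or the most abundant where none passed. From each further list up to 2 genes per direction are named in the same way. E2f2 in the deletion set and Cdkn2b between the mTEC groups were added after their values were seen. No replicate pair looked like a single library under 2 names, since the chi-square between counts exceeded 1 per gene in every pair. Chromatin samples were not used here.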

Additional observations from a re-analysis of the deposited data

Results flagged for a closer look

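In the deletion set, 3 genes had a highest library that stood apart from the other 4 of its group by Dixon's test, each time deleted cTEC library 2. Mcm4 was at 101 CPM, Cdt1 at 24.3 CPM and Cdk2 at 46.3 CPM there. These were 3 of 90 groups examined, and chance flags about 1 in 20.

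With the transgene label, Foxn1 itself went opposite ways in the subsets, -0.36 in cTEC and 0.66 in mTEC. The difference between labels (heterozygous minus homozygous) differed between mTEC and cTEC for 37 of the 45 genes by the interaction test of edgeR. It is given here as the log2 difference in mTEC minus that in cTEC. The replication genes were Mcm2 (0.57), Mcm3 (0.50), Mcm5 (0.63), Mcm6 (0.59), Mcm7 (0.34), Cdc6 (1.28), Rrm1 (0.49), Rrm2 (0.95), Tyms (0.64), Pola1 (0.78) and Rfc4 (0.64). Those of S-phase entry were E2f1 (0.88), E2f2 (1.08), Ccne1 (0.67), Ccne2 (0.48) and Cdk2 (0.49). The checkpoint, kinase and cyclin genes of mitosis were Ccna2 (0.88), Ccnb1 (0.97), Ccnb2 (0.62), Bub1 (0.65), Bub1b (0.77), Mad2l1 (0.62), Aurkb (0.88) and Plk1 (0.92). The other genes of mitosis were Mki67 (0.93), Top2a (0.87), Cdc20 (0.90), Cenpe (0.54), Cenpf (0.75), Kif11 (0.91), Kif20a (0.77), Birc5 (0.72), Ube2c (1.01) and Tpx2 (0.61). Of the G1 regulators, Ccnd2 (0.41), Ccnd3 (-0.88) and Cdkn1b (0.34) differed, Ccnd3 with opposite directions in the subsets.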

How the results depend on the processing

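No gene past the threshold changed direction under any alternative run. Differences that did not pass changed sign for some genes, for example E2f2 in mTEC, which differed by -0.01, and Aurka between subsets in homozygous mice, which differed by 0.01, with DESeq2 size factors. In the deletion set the count of lower genes was 1 (E2f2) with DESeq2, 1 with the replicate block by library number (log2 difference -1.18, adjusted p = 0.0377), and 0 to 1 without each library in turn. The library numbers were not taken as pairs, since the labels give no pairing. Correlations of same-numbered deviations were 0.601, 0.754, 0.085, 0.353 and 0.448 in the deletion set and 0.052 to 0.071 in the transgenic set. In the deletion set the highest correlations with another number were 0.071, 0.027, 0.172, 0.059 and 0.328, above the same-numbered value only for number 3. With the block, 398 of all genes were higher and 822 lower after deletion, against 43 and 257 without it. Without both libraries numbered 2, an alternative chosen after seeing the data, E2f2 differed by -1.40 (adjusted p = 0.0626).

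For dose in cTEC, the 14 higher genes became 4 without the filter, 24 without normalization factors and 6 to 22 without each library in turn, and the 2 lower genes 2 to 4. The 11 replication genes became 3 without the filter and 4 to 11 without each library. The 1 mitosis gene became 0 without the filter, 8 without normalization factors, 2 with the replicate block and 0 to 8 without each library. Calls were lost without some library for 9 of 16 genes: Ccnd3, Cdt1, Cenpf, Gins2, Mcm2, Mcm4, Mcm6, Pola1 and Rrm1.

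For dose in mTEC, 37 to 42 genes were higher without each library in turn. The 2 lower genes became 1 with limma-voom, 1 without the filter and 0 to 1 without each library. Apart from runs without a library, calls were lost in some setting for Ccnd3, Ccne1 and Mad2l1. When a group keeps 1 library, it is assumed to vary like the others.

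Between subsets in homozygous mice, 34 to 40 genes were lower without each library. In heterozygous mice, 3 to 11 genes were higher and 8 to 12 lower without each library. There the 1 higher mitosis gene became 2 with DESeq2, its size factors, limma-voom or no normalization factors, and 1 to 5 without each library. The 2 lower ones became 1 with DESeq2, its size factors, limma-voom, no filter, no normalization factors or the compared libraries alone, and 1 to 3 without each library. Replication genes were higher in 0 to 2 cases and lower in 5 to 7.

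For the interaction, the 36 higher genes became 22 without the filter, 23 without normalization factors and 24 to 41 without each library. The 11 replication genes became 7 with DESeq2, 6 with its size factors, 5 without the filter, 4 without normalization factors and 5 to 14 without each library. The mitosis count was 14 to 20 without each library. Causes were not tested. With 2 mTEC libraries per group, these comparisons have the least replication.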
